A study of Mus musculus with 6 samples.

Results

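The genes described here are 7 genes of megakaryocytes and platelets: Ppbp, Pf4, Itga2b, Treml1, Gp9, Gp5 and Gp6. They were taken by name, and a gene counted as measured where a probe set of the array was annotated to that symbol and no other. Of the 7 genes, 6 were measured, each by 1 probe set, among 14860 genes on the array. Gp6, the platelet receptor for collagen, was not matched to such a probe set and was not analysed here. RNA came from whole mouse hearts at E13.5, a mid-gestation embryonic stage, pooled from 4 to 6 hearts per array, with 3 arrays per genotype. Knockout hearts had the genotype Mesp1 Cre/+; Hic2 FL/FL, in which a recombinase made in early mesoderm acts on the floxed gene of the transcription factor Hic2. Control hearts were Hic2 FL/FL without Cre. Both groups therefore carried the floxed alleles, there was no group with Cre alone, and the labels give no strain, sex or litter. The labels call the arrays biological replicates, so the spread given here is between pools of hearts.

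Megakaryocytes are the large blood cells that shed platelets, and in the embryo they arise first from the yolk sac and then from the fetal liver. They make the platelet's adhesion receptors, load its alpha granules with chemokines and clotting proteins, and share the factors Gata1, Tal1 and Gfi1b with the red cell lineage. A dissected heart carries platelets and other blood cells in its chambers and vessels. In whole tissue, fewer cells of a type and less RNA per cell cannot be told apart.

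Promoters of 4 of the genes are shown because Ppbp and Pf4 are neighbouring genes whose values are set against each other, and because Itga2b and Gp9 stand for the receptor complexes described next. Each runs 5′ to 3′ from 250 bases before the RefSeq start to 50 bases after it (build GRCm38.p6). Capitals mark GATAA, a core bound by GATA factors, and GGAAG, a core bound by ETS factors such as Fli1, searched on both strands, with no base shared between matches. The Ppbp promoter is chr5:90768268-90768567 on the + strand, that of Pf4 is chr5:90772185-90772484 on the + strand, that of Itga2b is chr11:102469834-102470133 on the - strand and that of Gp9 is chr6:87777820-87778119 on the + strand.
Ppbp: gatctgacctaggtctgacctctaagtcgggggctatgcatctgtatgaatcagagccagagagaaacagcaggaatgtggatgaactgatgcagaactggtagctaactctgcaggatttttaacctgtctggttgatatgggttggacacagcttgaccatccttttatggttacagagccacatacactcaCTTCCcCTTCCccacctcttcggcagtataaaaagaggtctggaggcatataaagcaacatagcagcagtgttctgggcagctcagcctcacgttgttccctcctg
Pf4: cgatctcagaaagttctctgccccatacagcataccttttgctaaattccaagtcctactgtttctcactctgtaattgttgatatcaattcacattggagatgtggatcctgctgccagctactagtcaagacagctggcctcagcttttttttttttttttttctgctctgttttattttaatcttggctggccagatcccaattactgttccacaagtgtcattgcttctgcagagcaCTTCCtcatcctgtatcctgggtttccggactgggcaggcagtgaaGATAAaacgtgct
Itga2b: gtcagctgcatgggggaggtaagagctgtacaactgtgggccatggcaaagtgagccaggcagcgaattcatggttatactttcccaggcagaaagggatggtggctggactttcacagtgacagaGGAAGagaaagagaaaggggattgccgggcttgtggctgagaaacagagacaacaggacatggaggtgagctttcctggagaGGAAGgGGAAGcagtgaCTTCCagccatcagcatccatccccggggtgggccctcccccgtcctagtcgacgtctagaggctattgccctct
Gp9: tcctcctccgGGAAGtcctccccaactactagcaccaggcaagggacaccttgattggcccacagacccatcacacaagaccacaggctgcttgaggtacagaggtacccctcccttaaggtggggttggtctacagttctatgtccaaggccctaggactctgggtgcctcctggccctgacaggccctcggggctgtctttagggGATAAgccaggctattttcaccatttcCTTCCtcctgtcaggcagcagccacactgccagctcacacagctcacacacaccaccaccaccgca
GATAA was present in the windows of 4 of the 7 genes, Pf4, Gp9, Gp5 and Gp6, and in 25.4% of the 32851 mouse promoters of the same length. GGAAG was present in all 7 windows and in 71.4% of mouse promoters. In Pf4 the GATAA match began at +38, in Gp9 it began at -43, and in Gp5 there were 2, at -93 and -77. Itga2b had 4 GGAAG matches, 3 of them beginning between -42 and -25. These matches are descriptions of the letters and not of binding.

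None of the 6 measured genes passed the test between genotypes, although 5 of the 6 averaged less signal in knockout hearts, as 48.4% of all genes did. Genes were compared with limma on the deposited log2 values, and p was adjusted over all 14860 genes with a threshold of 0.05. That test called 0.559% of all genes (83 of 14860), and 0 of the 6. An unadjusted limma p under 0.05 was reached by 3 of the 6, Ppbp, Itga2b and Treml1, against 17.5% of all genes. The 6 genes had a median log2 change of -0.27, beside 0.00497 over all genes. The median was -0.45 without control replicate 3. Of all single-array omissions, that one gave the lowest log2 change for each of the 6 genes. Without control replicate 1 the decrease was smaller than with all arrays for each of the 5 lower genes. In all 6 the values of the genotypes overlapped, while knockout and control arrays did not overlap in 24.6% of all genes.

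The secreted chemokines of the alpha granule gave different values. Ppbp, the precursor of a chemokine that attracts neutrophils, had a log2 signal of 10.64, 10.93 and 10.73 in knockout hearts, against 11.36, 11.08 and 10.89 in control hearts. Control replicates 1 and 2 stood above every knockout array, and control replicate 3 lay just under knockout replicate 2. The means were 10.76 ± 0.15 in knockout and 11.11 ± 0.23 in control hearts (SD, n = 3 each), a log2 change of -0.35 ± 0.13 (SE, 95% confidence interval -0.65 to -0.05) with a limma adjusted p of 0.229. Pf4, platelet factor 4, which binds heparin and restrains megakaryocyte growth, had 9.03, 9.32 and 9.01 in knockout hearts, against 9.22, 9.19 and 8.81 in control hearts. Its highest value was in a knockout array and its lowest in a control array. The Pf4 log2 change was 0.042 ± 0.13 (SE, interval -0.26 to 0.35, limma adjusted p = 0.900), and its sign turned without control replicate 3 or without knockout replicate 2.

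Itga2b codes for the alpha subunit of the platelet fibrinogen receptor, whose beta subunit is Itgb3, and it also marks early blood progenitors. Itga2b had a log2 signal of 8.41, 8.44 and 8.03 in knockout hearts, against 8.77, 8.84 and 8.42 in control hearts. Knockout replicate 3 was the lowest array, and control replicate 3 lay between knockout replicates 1 and 2. The log2 change was -0.38 ± 0.15 (SE, interval -0.72 to -0.04), a knockout to control ratio of 0.768, and the limma adjusted p was 0.240.

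Gp9 and Gp5 code for subunits of the platelet receptor for von Willebrand factor. Gp9 had a log2 signal of 9.80, 10.12 and 9.78 in knockout hearts, against 10.41, 10.30 and 9.95 in control hearts. The overlap again came from control replicate 3, which lay below knockout replicate 2, and the log2 change was -0.32 ± 0.14 (SE, interval -0.64 to 0.0038, limma adjusted p = 0.289). Gp5 had 6.01, 6.22 and 5.59 in knockout hearts, against 6.51, 6.43 and 5.46 in control hearts. Its lowest array was control replicate 3. The Gp5 log2 change was -0.19 ± 0.29 (SE, interval -0.86 to 0.48, limma adjusted p = 0.774), with -0.53 when control replicate 3 was left out and -0.0041 when control replicate 1 was left out. Gp5 was also dim, with a probe set brighter than only 21.1% of genes, and its values ranged over 0.63 in knockout and 1.05 in control arrays. The other measured genes were brighter than 52.4% (Itga2b) to 89.8% (Ppbp) of genes, a statement on probe set signal and not on transcript amount.

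Treml1 codes for a receptor kept in the alpha granules and moved to the surface on activation. Treml1 had a log2 signal of 8.49, 8.53 and 8.41 in knockout hearts, against 8.85, 8.71 and 8.52 in control hearts. Control replicate 3 was 0.00991 below the highest knockout array, so the genotypes overlapped by that margin. The log2 change was -0.22 ± 0.09 (SE, interval -0.43 to -0.01), with a limma adjusted p of 0.273.

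**Figure D1:**
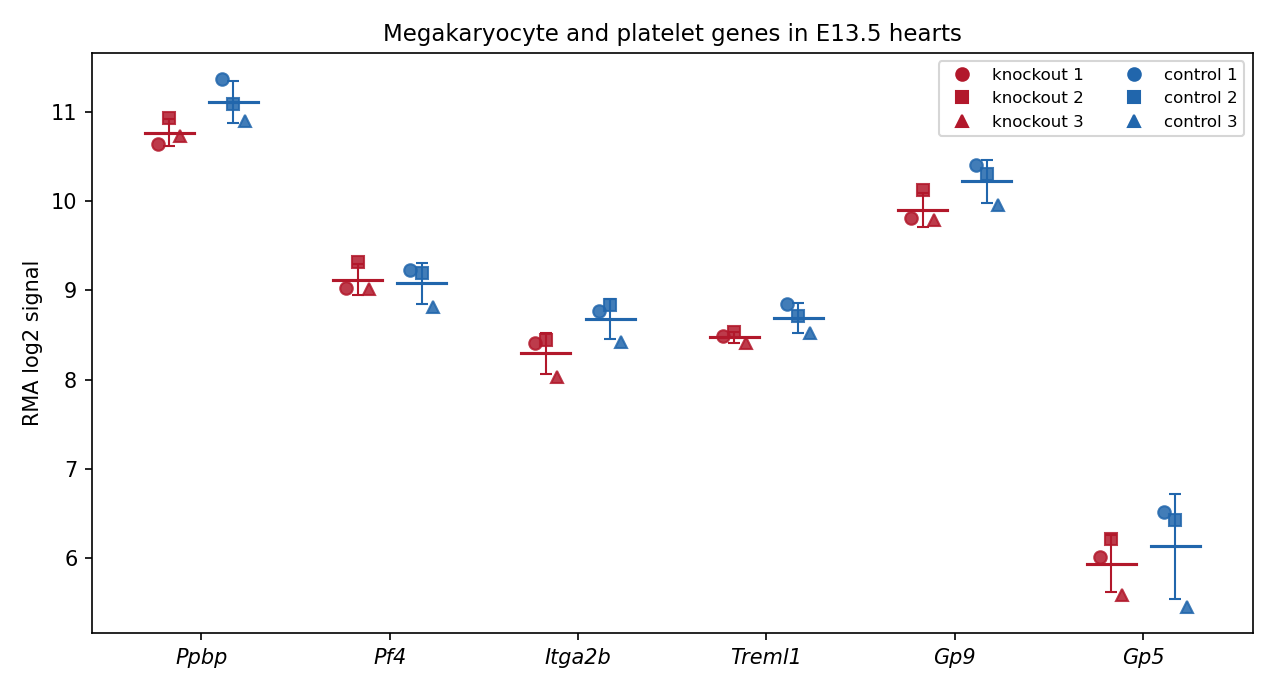
RMA log2 signal (y axis) of the 6 measured genes (x axis) in 3 knockout arrays (red, left of each pair) and 3 control arrays (blue), with the mean as a line and the SD as an error bar. Control replicate 3 (blue triangle) is the lowest control for all 6 genes and lies within or below the knockout values.

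The lowest control array and the highest knockout array were the same for all 6 genes. Most of the genes shared the order of the other arrays too. Knockout replicate 3 was the lowest knockout array in 5 of 6, all except Ppbp, and in 3 of 6 with arrays centred on their medians. Control replicate 1 was the highest control array in all except Itga2b. Control replicate 3 was the lowest control array and knockout replicate 2 the highest knockout array in 6 of 6 genes, a pattern picked out after the values were seen and found in 7.51% of all genes. With each array centred on its median it was found in 6 of 6 genes and in 5.46% of all genes. Some genes of other lists had it too. It was present in 4 of 14 platelet signalling genes and 4 of 13 platelet granule genes. Macrophage markers had it in 3 of 12 and red cell markers in 1 of 13. After centring these counts were, in that order, 6, 5, 2 and 1. Progenitor markers had it in 3 of 10 and transcription factors in 2 of 13. Other platelet receptors had it in 1 of 13 and endothelial markers in 1 of 10. After centring these were 2, 1, 3 and 0. As deposited it was present in 0 of 8 thrombopoietin genes and 0 of 8 cytoskeletal genes, and after centring in 0 and 1. Control replicate 3 alone was the lowest control in 13 of 14 signalling genes. It was so in 9 each of 13 granule genes, 13 red cell markers and 12 macrophage markers. After centring these counts were 11, 9, 5 and 6. As deposited the count was 7 of 13 other platelet receptors and 5 of 13 transcription factors. It was 3 of 8 thrombopoietin genes and 4 of 8 cytoskeletal genes. For these counts, and for those of knockout replicate 3 and control replicate 1, the share over all genes was not counted. They are thus not shown to be particular to platelet or blood genes. Control replicate 3 also had the lowest median over genes, 8.25 against 8.31 to 8.36 in the other arrays. The 6 genes share their RNA pools, so these are not 6 separate observations of an array. The mean of the genes' centred log2 values was -0.14, 0.06 and -0.28 in knockout replicates 1 to 3, against 0.32, 0.23 and -0.19 in control replicates 1 to 3. Control replicate 3 thus stood among the knockout arrays and apart from the other controls. It also stood apart in the Y-linked gene Eif2s3y, at 4.36 against 8.51 to 9.64 in the other 5 arrays, and whether this bears on the platelet genes was not tested. Without control replicate 3, all 3 knockout arrays lay below both other controls for 5 of the 6 genes, all except Pf4. The same held for 16.9% of all genes. That share is no baseline, because the array was singled out here after it was seen to be the low control in all 6 genes. The separation is thus no support for a decrease. Without control replicate 3 the limma adjusted p of the 6 genes lay between 0.214 (Treml1) and 0.718 (Pf4). Thus 0 of 6 passed, while 13 genes of the whole array did.

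**Figure D2:**
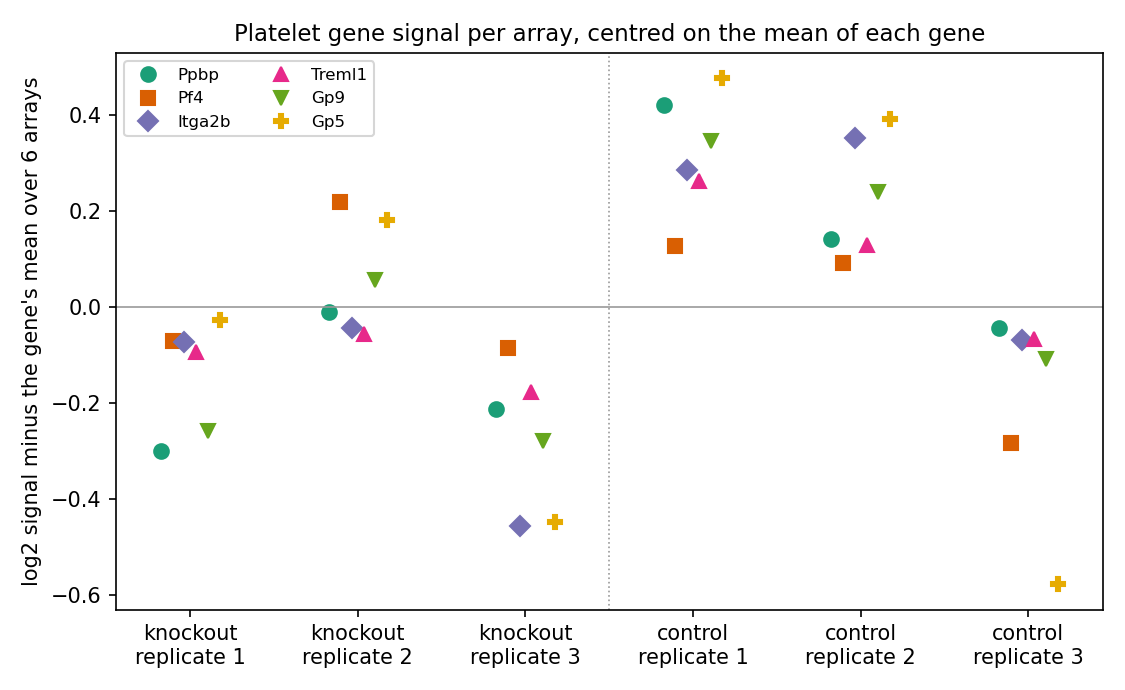
Log2 signal of each measured gene minus its mean over the 6 arrays (y axis) in each array (x axis), knockout left and control right of the dotted line. For each gene the symbol of knockout replicate 2 sits above those of the other knockout arrays and that of control replicate 3 below those of the other controls.

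Set against Pf4 of the same array, 4 of the other 5 platelet genes had lower values in all knockout arrays than in any control array. This comparison was chosen after seeing the data, with Pf4 as the base because it was the 1 measured gene that did not average lower. The log2 signal of Gp9 minus that of Pf4 was 0.78, 0.80 and 0.77 in knockout hearts, against 1.18, 1.11 and 1.14 in control hearts. The spread within a genotype was 0.02 (SD) in knockout and 0.04 in control hearts, against 0.19 and 0.24 for Gp9 alone. The difference of -0.36 between genotypes was thus larger than the spread between arrays of a genotype. Ppbp minus Pf4 was 1.61, 1.61 and 1.71 in knockout hearts, against 2.14, 1.89 and 2.08 in control hearts. Itga2b minus Pf4 was -0.61, -0.87 and -0.98 in knockout hearts, against -0.45, -0.35 and -0.40 in control hearts. Treml1 was the fourth gene without overlap. Relative to Pf4, every knockout array lay below every control array for 1.76% of all genes. That share is no baseline for the platelet genes, because Pf4 has their low control and high knockout array. Subtracting it can narrow their spread and can add spread to genes without that pattern. The SD narrowed in both genotypes for all 5 genes except Treml1, whose knockout SD rose from 0.06 to 0.13. Gp5 overlapped, with a difference of -0.24.

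Limma did not call these ratios, and a permutation test of so few arrays could not have done so. By exact permutation of the arrays, two-sided, p was 0.1 for each of the 4 separated genes, and p = 0.4 for Gp5. The value of 0.1 is the smallest that 3 against 3 arrays allow, so it says nothing beyond the separation itself. Limma fitted to all genes relative to Pf4 called 0 of the 5 and 0.262% of all genes, with 2 of the 5, Ppbp and Itga2b, at an unadjusted p under 0.05. In that fit the array-to-array variation of Pf4 entered every gene, and all 5 genes had 1 shared standard error of 0.20. Pf4 was chosen as the 1 gene that did not average lower, so lower mean ratios for the other 5 were fixed by that choice. The p values take no account of it, so unequal change is not shown. Nor does a ratio show which of its genes changed. Pf4 is also transcribed by some mouse macrophages. All 12 macrophage markers averaged higher in knockout hearts, and the log2 of their summed signal was 12.27 to 12.30 in knockout arrays, against 11.84 to 12.04 in control arrays. Their part in the Pf4 values was not tested.

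**Figure D3:**
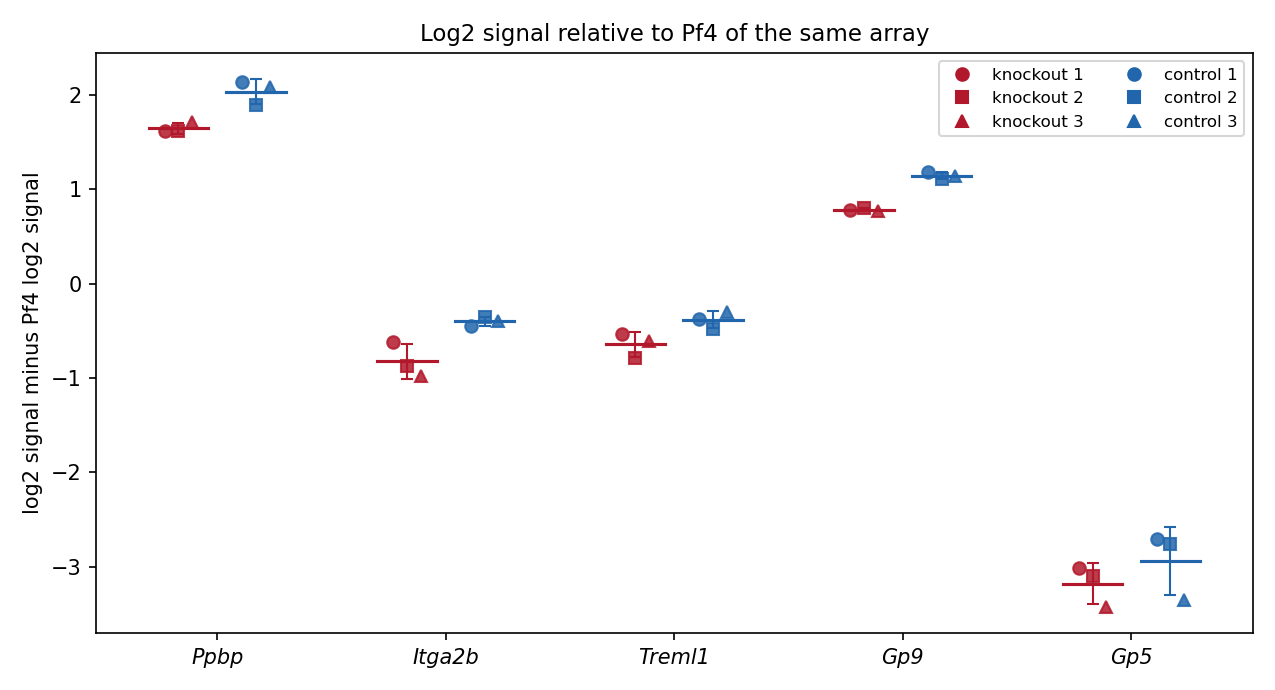
Log2 signal of 5 platelet genes minus the log2 signal of Pf4 in the same array (y axis), in knockout arrays (red, left of each pair) and control arrays (blue), with the mean as a line and the SD as an error bar. The genotypes do not overlap for Ppbp, Itga2b, Treml1 and Gp9, and Gp9 has the narrowest spread.

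Further genes of platelet formation and function were read from 6 lists that hold 82 genes, of which 68 were measured. None passed the limma test over all genes, and 23 of the 68 had an unadjusted p under 0.05, against 17.5% of all genes. Of the 68, 42 averaged lower and 26 higher in knockout hearts, with a median log2 change of -0.050.

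Among 13 other platelet receptors, 8 averaged lower and 5 higher, with a median log2 change of -0.21 and 0 past the threshold. Knockout and control arrays did not overlap in 11 of the 13, of which 7 lay below and 4 above the controls, against 10.4% and 14.2% of all genes. Itgb3, the beta subunit that pairs with Itga2b, had a log2 signal of 8.54, 8.58 and 8.44 in knockout hearts, against 8.93, 8.91 and 8.82 in control hearts. Its log2 change of -0.36 ± 0.07 (SE, limma adjusted p = 0.0673) was close to that of Itga2b. Unlike Itga2b it separated the genotypes in all 6 arrays.

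F2rl3, a thrombin receptor of mouse platelets, had a log2 signal of 6.06, 6.08 and 6.08 in knockout hearts, against 6.51, 6.52 and 6.33 in control hearts. Its log2 change was -0.38 ± 0.07 (SE, limma adjusted p = 0.0673). The tetraspanin Cd9 went the other way, with 9.65, 9.73 and 9.82 in knockout hearts, against 9.48, 9.42 and 9.27 in control hearts (0.34 ± 0.08, SE, limma adjusted p = 0.108). The remaining receptors without overlap are named because of that count, after their values were seen. Below the controls were the ADP receptor P2ry1 (log2 change -0.26), the thromboxane receptor Tbxa2r (-0.18), the collagen receptor subunit Itga2 (-0.26), the laminin receptor subunit Itga6 (-0.21) and the adhesion receptor Cd226 (-0.42). Above the controls were the podoplanin receptor Clec1b (0.36), the thrombin receptor F2r (0.10) and the scavenger receptor Cd36 (0.24). Several of these receptors, among them Cd9, Cd36, F2r and Itga6, are made by endothelial, muscle or other cells of the heart. F2r is a thrombin receptor of human platelets, while mouse platelets use others such as F2rl3. It is included in the receptor counts, but its value is not read here as one of platelets.

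Signalling and granule genes were mixed. Of 14 genes that relay activation signals 8 averaged lower and 6 higher, with a median log2 change of -0.043. The smallest unadjusted p belonged to the G protein subunit Gng11 (0.43 ± 0.14, SE), the Fc receptor gamma chain Fcer1g (0.23 ± 0.08), which macrophages also make, and Rgs18, a regulator of G protein signalling in platelets (-0.49 ± 0.19). Their limma adjusted p lay between 0.191 and 0.248. Of 13 granule and thromboxane genes 7 averaged lower and 6 higher, with a median of -0.089. The lipoxygenase Alox12, which makes a platelet lipid mediator, had a log2 change of -0.40 ± 0.13 (SE, limma adjusted p = 0.189) and the clotting factor F5 one of -0.24 ± 0.09 (0.234).

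Of 13 transcription factors of the lineage 9 averaged lower and 4 higher, with a median log2 change of -0.044. Tal1, a factor of blood and endothelial cells, had a log2 signal of 9.17, 9.21 and 9.15 in knockout hearts, against 9.51, 9.48 and 9.58 in control hearts. The knockout arrays all lay below the controls, and the change of -0.35 ± 0.06 (SE) had a limma adjusted p of 0.0538. Gfi1b, a repressor needed for megakaryocytes and red cells, had a change of -0.34 ± 0.11 (SE, limma adjusted p = 0.193), while Gata2, a factor of progenitors, mast cells and endothelium, had 0.19 ± 0.06 (0.182).

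The 8 measured thrombopoietin signalling genes lay between -0.13 and 0.12 in log2 change. Their smallest limma adjusted p was 0.383, for the adaptor Sh2b3. The 8 measured cytoskeletal genes lay between -0.19 and 0.15, the lowest value belonging to the actin-disassembly factor Wdr1 (-0.19 ± 0.06, SE, limma adjusted p = 0.184).

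Of 13 measured red cell markers 6 passed the limma test as lower in knockout hearts, against 0.222% of all genes. The 13 had a median log2 change of -0.90, and in 10 of them all knockout arrays lay below all controls, against 10.4% of all genes. The 6 were Trim10, a gene of red cell differentiation (-1.33 ± 0.11, SE), the anion exchanger Slc4a1 (-1.32 ± 0.12), the membrane skeleton protein Epb42 (-1.13 ± 0.11), the blood group gene Kel (-1.06 ± 0.11), the haem synthesis enzyme Alas2 (-0.90 ± 0.08) and the blood group gene Rhd (-0.73 ± 0.11). The genotypes overlapped for the embryonic globin Hba-x (-0.26 ± 0.09), the red cell transcription factor Klf1 (-0.05 ± 0.16) and the erythropoietin receptor Epor (-0.05 ± 0.07), which are named because of that count. The log2 of the summed signal of the 13 markers was 15.25 to 15.38 in knockout arrays, against 15.56 to 15.69 in control arrays. The embryonic globins Hbb-y and Hba-x, neither of which passed, made up 78.4% of that sum. For the 6 platelet genes the log2 of the summed signal was 11.87 to 12.13 in knockout arrays, against 12.44 and 12.28 in control replicates 1 and 2, with control replicate 3 inside the knockout range. Ppbp made up 44.8% of that sum. The part of red cell content in the platelet values was not tested, nor was the difference between the lists. The 6 red cell calls became 0 without control replicate 2, 2 without control replicate 1, 2 without control replicate 3 and 3 without knockout replicate 3.

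Macrophage markers averaged higher. Of 12 measured markers, 2 passed the limma test as higher, against 0.336% of all genes, and the median log2 change was 0.27. The 2 were the Fc receptor Fcgr3 (0.69 ± 0.11, SE, limma adjusted p = 0.0492) and the complement gene C1qc (0.45 ± 0.07, limma adjusted p = 0.0471). Neither passed when any 1 of the 6 arrays was left out.

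**Figure D4:**
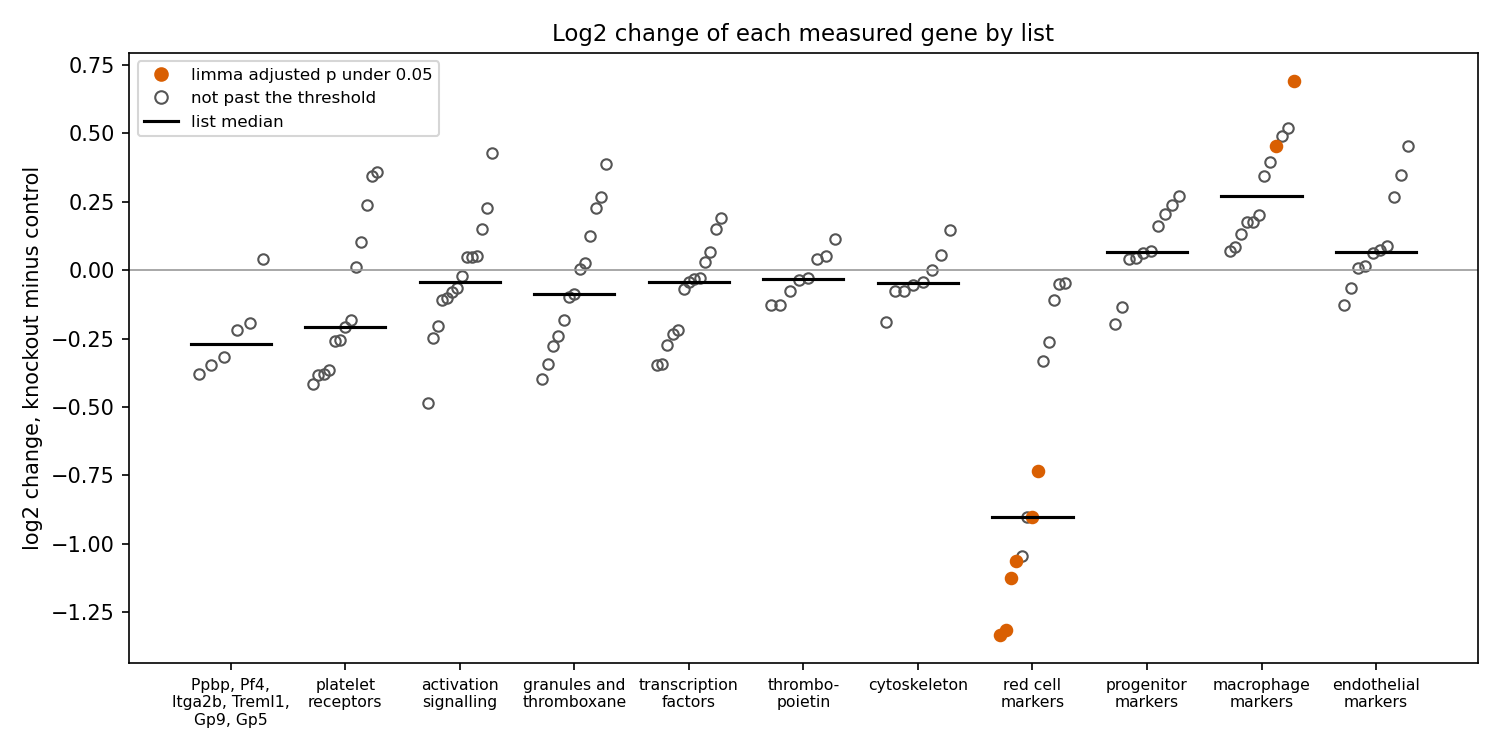
Log2 change, knockout minus control (y axis), of each measured gene in the lists named on the x axis, with filled circles for a limma adjusted p under 0.05, open circles for the rest and a bar for the list median. The 6 platelet genes and the 6 lists of related genes have open circles only, while red cell markers reach -1.33 and macrophage markers 0.69.

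The gene whose pattern over the arrays was most like the mean of the 6 platelet genes was Plek. Likeness was the root mean square difference between log2 values centred on each gene's mean over the 6 arrays. Plek, which codes for pleckstrin, a protein of platelets and leukocytes that is phosphorylated on activation, differed from the mean profile by 0.048 on that log2 scale. Plek had a log2 signal of 9.43, 9.50 and 9.25 in knockout hearts, against 9.79, 9.79 and 9.34 in control hearts. Control replicate 3 was its low control, which follows from the choice by likeness and is no further observation. The next were Dnm3os, at a difference of 0.071, then 9930014A18Rik, at 0.074, and the olfactory receptor genes Olfr788 and Olfr972, at 0.076 and 0.077. Olfr788 was brighter than 2.38% of genes and Olfr972 brighter than 0.202%, near the floor of the arrays. Among the 6 genes themselves Gp9 was closest to their mean profile, at 0.061, and Gp5 farthest, at 0.21, followed by Pf4 at 0.15. The search covered all genes with only 6 arrays, so these values are descriptions and carry no test.

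Hic2, the targeted gene, had a log2 signal of 8.07, 7.96 and 8.04 in knockout hearts, against 8.10, 8.26 and 8.14 in control hearts, with a limma adjusted p of 0.314. The knockout arrays lay below the controls by a narrow margin, and the sources used here do not give where its probes lie relative to the floxed part. The 6 arrays correlated at 0.993 to 0.997 across the genes tested. The heart muscle marker Tnnt2 was brighter than 99.9% of genes, and the 6 measured heart muscle markers had a median log2 change of -0.035 with 0 past the threshold. In that list the cardiac transcription factor Nkx2-5 had the smallest unadjusted p, with a mean log2 signal of 11.79 ± 0.21 in knockout hearts, against 12.16 ± 0.034 in control hearts (SD, n = 3 each). Its log2 change was -0.37 ± 0.10 (SE, limma adjusted p = 0.157), and the genotypes did not overlap. Precision is limited by there being 3 arrays in each group.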

How the data were processed

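Per the labels' protocols, heart RNA was prepared with Qiagen, Ambion and Affymetrix kits and read on Affymetrix arrays. The deposited values are log2 signals, and the submitters' processing notes name RMA and Affymetrix Expression Console. RMA brings the arrays towards a shared signal distribution, so a change common to most genes is not fully visible. It also compresses changes of dim probe sets. The medians of the deposited values still differed, from 7.41 in control replicate 3 to 7.48 in knockout replicate 1. The sources used here give no software version or probe set level, and no detection calls were used. Values ranged from 2.08 to 14.5.

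Of 23332 rows, 14996 carried 1 gene symbol, 1019 several and 7317 none. The row with the highest mean was kept per gene, leaving 14860 genes with no filter on dim signal. Genes were compared with limma 3.58.1 in R 4.3.3 (lmFit and eBayes, two-sided, Benjamini-Hochberg over all genes, threshold 0.05). Errors of log2 changes are standard errors of that fit, and confidence intervals are at 95% without adjustment. The fit was tested on simulated data. Over all genes, same-numbered replicates did not deviate together (r = -0.04, 0.02 and 0.13), so the arrays were not treated as paired. In the platelet genes replicate 3 was the lowest array of both genotypes in 5 of 6, and in 3 of 6 after median centring. A fit blocked on replicate number is therefore among the alternatives. Promoter sequences are RefSeq's (GRCm38.p6), and all 7 genes matched.

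The 7 genes, the 11 other gene lists and the tests were chosen with earlier results of these data known. The text names all measured genes of the 7 and, from each other list, the genes past the threshold and up to 3 more with the smallest unadjusted p. It also names the 5 genes nearest the mean profile, and any gene singled out after its values were seen. Alternative settings left out each array, blocked on replicate number, weighted arrays, centred arrays on the median, applied quantile normalisation, moderated variances robustly along a trend, kept brighter genes only, tested every row or averaged probe sets.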

Additional observations from a re-analysis of the deposited data

How the results depend on the processing

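The 6 measured platelet genes stayed short of the limma threshold under all 14 alternatives planned (13 for Gp5, which the brightness filter removed), with adjusted p between 0.0962 and 0.997. Leaving out single arrays gave log2 changes of -0.46 to -0.22 for Ppbp, -0.51 to -0.25 for Itga2b, -0.45 to -0.23 for Gp9, -0.31 to -0.14 for Treml1 and -0.53 to -0.0041 for Gp5. Pf4 ranged from -0.089 to 0.12 and turned below 0 without knockout replicate 2 (-0.057) and without control replicate 3 (-0.089), with adjusted p of 0.888 and 0.718. The other alternatives turned no sign of the 6. The count of genes called, 83, became 38 with the replicate block, 3 to 28 without single arrays and 203 with a variance trend. It was 733 with array weights, which put 4.19 on knockout replicate 2 and 0.56 to 1.78 on the other arrays. With brighter genes only the count was 443 of 7430 genes. It was 0 over every row of the array, where 2935 of 23332 rows had an unadjusted p under 0.05, and more rows were tested there. Among the other platelet receptors the called count of 0 became 1 with a variance trend, 4 with array weights, 1 with median centring and 2 with brighter genes only, and among transcription factors 1 with the trend, weights or brighter genes. The 6 red cell calls became 10 with array weights and 0 over every row. The cause was not tested. The replicate block changed no call of the 6 genes. Averaging probe sets left the count at 83.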

Other observations

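Of 10 measured blood progenitor markers 8 averaged higher in knockout hearts, with a median log2 change of 0.067 and 0 past the limma threshold, while 3 had an unadjusted p under 0.05. These were the protein C receptor Procr (0.27 ± 0.08, SE, limma adjusted p = 0.177), the leukocyte phosphatase Ptprc (0.16 ± 0.06, 0.242) and the stem cell factor receptor Kit (0.24 ± 0.10, 0.274). Over the 10, all knockout arrays lay above all controls for 3, against 14.2% of all genes, and below them for 1, against 10.4%. That 1 was Cd34, a surface marker of progenitors and endothelium named because of that count, with a log2 change of -0.20 ± 0.09 (SE, limma adjusted p = 0.308). The other marker that averaged lower was the transcription factor Myb, at -0.14 ± 0.10 (0.513). The difference from the platelet genes was not tested. Of 10 endothelial markers 8 averaged higher, with a median of 0.067 and 0 past the threshold. The adhesion molecule Icam2 had 9.50, 9.49 and 9.57 in knockout hearts, against 9.20, 8.97 and 9.03 in control hearts, a log2 change of 0.45 ± 0.07 (SE, limma adjusted p = 0.0559). The sialomucin Emcn had 0.35 ± 0.06 (0.0673) and the secreted factor Egfl7 0.27 ± 0.07 (0.145). The clotting receptor ligand Vwf, made by both endothelium and megakaryocytes and named after its values were seen, had 9.12, 8.87 and 8.60 in knockout hearts, against 8.61, 8.71 and 8.47 in control hearts, and the genotypes overlapped.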
